A study of Mus musculus with 26 samples.

Results

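The genes described here are complement components and regulators: the central component C3, the classical pathway proteases C1s1 and C1ra, the convertase genes C4b, C2 and Cfb, and the regulators Serping1, Cd55 and Cd59a. They were taken by symbol, ignoring case, from the 55391 gene symbols of the count table, and all 9 were found. RNA was sequenced from EA1, EA2 and EA3, murine lung cancer cell lines that carry the EML4-ALK fusion, in which part of EML4 is joined to the kinase ALK. Cells were cultured in 100 nM alectinib, an ALK kinase inhibitor, or in 0.1% DMSO, the solvent control, with a single library for each line, treatment and day. The comparisons use 24 libraries from days 1, 2, 3 and 5, that is 4 per line and treatment. The treatment protocol in the labels lists days 1, 3, 5 and 7 and no day 2, while single libraries are labelled day 2, and the library labels were followed. All 3 lines came from C57BL/6 mice in which Cas9 and guides against Eml4 and Alk had been delivered by adenovirus. EA2 and EA3 derive from Trp53-null mice and EA1 from a Trp53 wild-type mouse. Each group is thus 1 line grown alone in medium with serum, and the 4 days stand in for replicates and no culture was repeated within a day. Another 2 libraries, labelled EA3 day 7, went against their label: across 14335 genes their log2 CPM correlated at 0.943 to 0.988 with EA2 libraries of the same treatment and at 0.852 to 0.89 with those of EA3. They were left out of every fit other than an alternative of all 26 libraries, which counts them as EA3. At the end, the 2 are also set against each other. Nothing in the labels says that days came from separate cultures, and p-values therefore measure the spread between days, which may in part be technical.

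Complement is a cascade of blood and tissue proteins that marks surfaces for uptake and lysis. In the classical pathway, the proteases C1r and C1s, which circulate with the recognition protein C1q, cleave C4 and C2 to form an enzyme that cleaves C3, while factor B forms the corresponding enzyme of the alternative pathway. C1 inhibitor (Serping1), CD55 and CD59 restrain the cascade at its start, at the convertases and at the membrane attack complex. The liver makes most of the circulating components, and epithelial cells and fibroblasts also make them locally, more so under inflammatory cytokines.

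Several members lie next to one another in the mouse genome (GRCm38, GENCODE M21 annotation). C1ra (chr6:124512405-124523443, plus strand) ends 6901 bases before C1s1 (chr6:124530345-124542359, minus strand), and C1rl, a C1r-like protease gene, ends 1761 bases before C1ra. C4b (chr17:34728380-34743882), Cfb (chr17:34856374-34862518) and C2 (chr17:34862604-34898265) sit on the minus strand of the major histocompatibility region, with 85 bases between Cfb and C2. C3 (chr17:57203970-57228136, minus strand) lies apart from them on the same chromosome. Serping1 (chr2:84765387-84775444, minus strand), Cd59a (chr2:104095801-104115354, plus strand) and Cd55 (chr1:130439027-130462744, minus strand) complete the set.

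The bases before the start sites of C3 and C1s1 are shown because both genes were higher with alectinib in all 3 lines. C1ra was higher too, but its RefSeq start lies 216 bases inside the GENCODE gene, so its window is mostly transcribed sequence and is not shown. Each run is the 250 bases ahead of the RefSeq start, read on the gene's own strand (GRCm38.p6), at chr17:57228137-57228386 for C3 and chr6:124542360-124542609 for C1s1. Capitals mark the letters TTNNGNAA, a consensus of C/EBP factors, found on either strand.
C3: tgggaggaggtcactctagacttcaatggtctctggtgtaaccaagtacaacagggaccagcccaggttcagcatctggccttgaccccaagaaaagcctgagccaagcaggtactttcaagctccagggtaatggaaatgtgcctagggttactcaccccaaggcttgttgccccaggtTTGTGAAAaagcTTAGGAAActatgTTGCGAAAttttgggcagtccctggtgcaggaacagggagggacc
C1s1: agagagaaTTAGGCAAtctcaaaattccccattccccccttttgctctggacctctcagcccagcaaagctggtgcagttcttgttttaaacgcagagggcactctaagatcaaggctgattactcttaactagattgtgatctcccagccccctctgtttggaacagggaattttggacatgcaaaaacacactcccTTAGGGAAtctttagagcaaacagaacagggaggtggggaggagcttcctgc
C3 held 3 matches, from 70 to 63, 58 to 51 and 45 to 38 bases before the start, and C1s1 held 2, from 242 to 235 and 52 to 45 bases before it. The C1ra window held 2, from 72 to 65 and 29 to 22 bases before the RefSeq start. These letters occur in 36.8% of 32851 RefSeq windows of the same length, so a match is a description and not a mapped site. None of these 3 windows held the STAT motif TTCNNNGAA (GAS, in 7.02% of windows), the interferon motif ISRE, a pair of GAAA repeats with 2 bases between them (in 2.98%), or the NF-kB consensus (in 7.25%), searched on both strands. Windows were given for 5 of the 9 members. Among them that of Cd59a held the ISRE letters, from 187 to 178 bases before the start, and that of Cd55 held none of the 4 motifs.

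Library totals lay between 5780062 and 11732401 counts (median 9252878). The ALK-dependent transcripts Etv4, Etv5, Dusp6 and Spry4 were used to check the labels. All 4 fell in each line, and their median log2 fold change was -3.87, -6.62 and -4.26 in EA1, EA2 and EA3. For none of the 4 did an alectinib library overlap the DMSO libraries of its line. The summed CPM (counts scaled to library size, with TMM factors) of 6 epithelial genes was 4630 to 9250 with DMSO and 3250 to 5370 with alectinib in EA1, 1810 to 2700 and 567 to 1170 in EA2, and 4680 to 6780 and 2970 to 6750 in EA3. In EA2, where the groups did not overlap, the keratin genes Krt8 (log2 fold change -2.61) and Krt18 (-1.79) fell and Cdh1 rose (1.55). Krt18 also fell in EA1 (-1.51) and EA3 (-1.13), Epcam rose in EA1 (2.45) and Cdh1 in EA3 (0.65), so 1 of the 6 rose in each line and 1, 2 and 1 fell, beside 14.6%, 11.3% and 15.1% of all genes that fell and 19.0%, 13.0% and 17.5% that rose. Cldn7 was near 0 in EA1 and EA2 and Epcam was near 0 in EA2. The summed CPM of 6 alveolar type 2 markers was 29.2 to 62.9 in EA1, 4.77 to 10.2 in EA2 and 41.7 to 196 in EA3. Of these, Abca3 was the only one tested and rose in EA3 (0.85), Sftpc did not exceed 0.129 CPM in any of the 24 libraries and Nkx2-1 did not exceed 0.757. Macrophage and leukocyte transcripts were low, with a summed CPM of 10 genes between 1.67 and 96.1, and between 2 and 5 of the 10 at 0 in every library of a group. The top of that range was nearly all Cd68, at 91.6 CPM in EA3 DMSO on day 5, which was not called in any line (log2 fold change 0.28, -0.36 and -1.1 in EA1, EA2 and EA3). Of the 3 that were tested, Cd74 rose in EA3 (1.92, adjusted p = 0.036, edgeR), from 0.894 to 2.93 mean CPM. Transcripts named as fibroblast markers were higher with alectinib: the summed CPM of 8 genes went from 9.08 to 44.1 in EA1 DMSO to 126 to 478 with alectinib, from 58.5 to 71.5 in EA2 to 122 to 240, and from 10.2 to 20.2 in EA3 to 84.8 to 274. Of the 6 that were tested, 5, 3 and 5 rose in EA1, EA2 and EA3, beside 19.0%, 13.0% and 17.5% of all genes tested. With DMSO, 2, 1 and 3 of the 8 were at 0 in every library of EA1, EA2 and EA3, and with alectinib 0, 1 and 0 were. The summed CPM of 6 hepatocyte genes also went from 2.03 to 5.79 with DMSO to 22.5 to 28 with alectinib in EA1, from 0.297 to 0.859 to 1.46 to 4.29 in EA2, and from 0.33 to 0.924 to 0.941 to 4.54 in EA3, and 2, 1 and 2 of the 2 that were tested rose. The part of these transcripts in the complement values was not tested, and in bulk RNA a change in the number of expressing cells and in RNA per cell cannot be told apart.

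Which complement genes differed between alectinib and DMSO was asked within each line. C3, C1s1 and C1ra rose in all 3 lines, while C4b and Cd55 rose in EA1. Cfb and Serping1 did not pass the test in any line, and no member was called lower. Serping1 had negative values in all 3 lines with wide intervals at few counts, so a fall of it is neither shown nor excluded. C2 and Cd59a had too few counts to enter the test. Of the 7 members tested, 5 were called higher in EA1, where 19.0% of all 14264 genes tested were called higher, 3 in EA2, against 13.0%, and 3 in EA3, against 17.5%. None was called lower, against 14.6%, 11.3% and 15.1% of all genes, and none had a negative change at an unadjusted p under 0.05 or was called lower by DESeq2. In EA1, EA2 and EA3 the 7 had a median log2 fold change of 3.09, 0.02 and 1.45, beside 0.06, 0 and 0.07 over all genes tested. The EA2 median is the value of Cfb, with 2 summed counts in each treatment, and it includes Cd55, with 0 counts in EA2, so neither gene could show a fall there. Serping1 held 9 summed counts with DMSO and 1 with alectinib in EA2, and C4b 15 and 8, so a fall of these could hardly be resolved. When libraries were scaled by their size without TMM factors, higher genes made up 64.6% in place of 56.6% of all calls in EA1, 48.3% in place of 53.5% in EA2 and 64.7% in place of 53.6% in EA3, the medians over all genes were 0.16, -0.04 and 0.18, the calls above remained, and Cd55 in EA3 also passed (1.56, adjusted p = 0.0472). C3, C1s1 and C1ra belong to the 824 genes, or 5.78% of those tested, that were called higher in all 3 lines. A call is an adjusted p under 0.05 (edgeR quasi-likelihood test, Benjamini-Hochberg over all genes tested, with line and day as block). The test needs a gene to reach a minimum level in as many libraries as a group holds, whichever groups these libraries belong to. Members that reached it only with the help of alectinib libraries were not free to show no change. C3, C1s1 and C1ra did not need that help, with at least 618, 17 and 78 counts in every EA3 DMSO library.

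**Figure D1:**
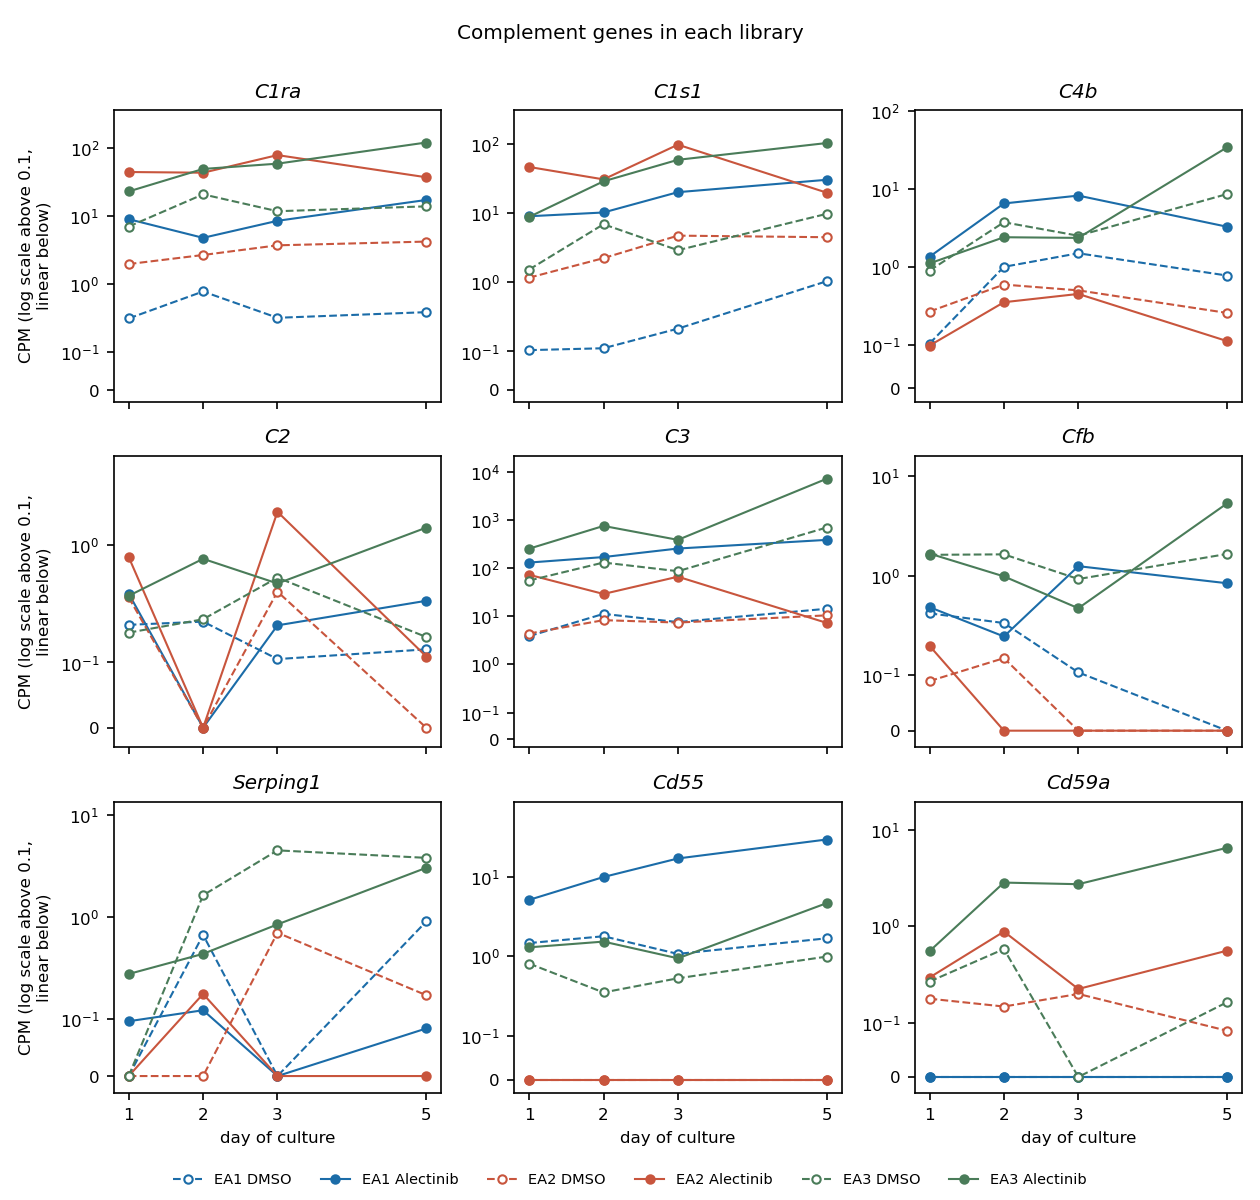
TMM-scaled CPM of the 9 complement genes on days 1, 2, 3 and 5 (x axis) in each library, on an axis that is logarithmic above 0.1 and linear below, with 1 panel per gene, 1 colour per line, and separate markers for DMSO and alectinib. C3, C1s1 and C1ra lie higher with alectinib in every line on every day except for C3 in EA2 on day 5, and Cd55 lies at 0 in all EA2 libraries.

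C3, the component on which all complement pathways converge, had the highest mean level per length of transcript among the members in every group except EA2 with alectinib. In EA1 DMSO libraries of days 1, 2, 3 and 5 it was at 3.87, 11.3, 7.59 and 14.4 CPM. In the corresponding alectinib libraries it was at 131, 171, 257 and 388 CPM. Every alectinib library of EA1 thus lay above every DMSO library, as it did for 18.4% of all genes tested in that line. The log2 fold change in EA1 was 4.69 ± 0.56 (SE; adjusted p = 7.5e-05, edgeR), from 9.26 ± 4.54 to 237 ± 114 CPM (mean ± SD over 4 days).

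In EA2, C3 was at 4.39, 8.32, 7.42 and 10.5 CPM with DMSO. With alectinib it was at 73.1, 29.2, 66.7 and 7.31 CPM on the same days. The day 5 alectinib library lay below its DMSO library and within the DMSO range, so the groups overlapped. C3 rose in EA2 by a log2 fold change of 2.21 ± 0.58 (SE; adjusted p = 0.0133, edgeR), with 3 of 4 days higher. This call rested on single days and on the model. Without day 1 the value was 1.55 (adjusted p = 0.101), without day 3 it was 1.8 (0.144), without day 5 it was 3.03 (0.000657), without the day block 2.53 (0.0643), and with EA2 fitted alone 2.2 (0.145), all by edgeR.

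In EA3, C3 was already high with DMSO, at 55.5, 131, 86.7 and 702 CPM. With alectinib it was at 255, 757, 389 and 7242 CPM. Day 5 stood far above the other days in both treatments, and the DMSO library of day 5 lay within the range of the alectinib libraries. The log2 fold change within days was 2.56 ± 0.5 (SE; adjusted p = 0.00208, edgeR), with 4 of 4 days higher, and it was 2.3 without day 5 (adjusted p = 0.0015) and 3.15 without the day block (0.0145).

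C1s1 encodes the protease C1s, which cleaves C4 and C2. With DMSO it was at 0.105, 0.111, 0.214 and 1.03 CPM in EA1, at 1.16, 2.23, 4.71 and 4.47 in EA2, and at 1.53, 6.88, 2.9 and 9.72 in EA3. With alectinib it was at 8.97, 10.2, 20.0 and 30.2 CPM in EA1, at 46.2, 30.6, 97 and 19.7 in EA2, and at 8.78, 28.7, 58.6 and 102 in EA3. All 12 line and day pairs were higher with alectinib, and the groups did not overlap in EA1 and EA2, as for 18.4% and 14.3% of genes tested. In EA3 they overlapped, because the day 5 DMSO library lay above the day 1 alectinib library. C1s1 rose by a log2 fold change of 5.67 ± 0.6 in EA1 (SE; adjusted p = 2.64e-05), 3.84 ± 0.47 in EA2 (7.49e-05) and 3.07 ± 0.45 in EA3 (0.00028, all edgeR). Without day 5 it was 6.33 in EA1 and 4.47 in EA2. The EA1 DMSO libraries of days 1 to 3 held 1, 1 and 2 reads of C1s1, below the floor of 3 counts, so the fold in EA1 has little precision.

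C1ra encodes C1r, the protease that activates C1s. It was at 0.314, 0.78, 0.321 and 0.388 CPM in EA1 DMSO libraries, at 1.97, 2.68, 3.71 and 4.21 in EA2, and at 7.0, 20.8, 11.7 and 13.8 in EA3. With alectinib it reached 8.97, 4.78, 8.49 and 17.2 CPM in EA1 libraries, 44.2, 43.1, 78.2 and 37.0 in those of EA2, and 22.9, 49.0, 58.5 and 120 in EA3. No alectinib library overlapped a DMSO library in any line, which held for 12.9% of genes tested in EA3. C1ra rose by 4.3 ± 0.47 on the log2 scale in EA1 (SE; adjusted p = 3.22e-05), 3.99 ± 0.37 in EA2 (1.19e-05) and 2.09 ± 0.33 in EA3 (0.00051, all edgeR). The EA1 value was 4.91 without day 2. C1ra and C1s1 have near copies, C1rb and C1s2, which share 26.1% and 2.83% of their transcripts in words as long as a single read, so reads from these stretches could have been lost or assigned to the copy. C1rb had no counts in EA1, 0 summed counts with DMSO and 3 with alectinib in EA3, and 9 and 48 in EA2, where C1s2 rose as well (log2 fold change 3.56 ± 0.93, adjusted p = 0.0138, edgeR), from 13 to 131 summed counts.

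C4b encodes complement C4, which is cleaved by C1s. In EA1 it was at 0.105, 1.0, 1.5 and 0.776 CPM with DMSO and at 1.35, 6.49, 8.18 and 3.27 with alectinib. Each alectinib library lay above the DMSO library of its day, with a log2 fold change of 2.55 ± 0.44 (SE; adjusted p = 0.000811, edgeR), although the groups overlapped. In EA2 no library held more than 5 counts of C4b (-0.71 ± 0.6, adjusted p = 0.439). In EA3 it was at 0.897, 3.73, 2.51 and 8.57 CPM with DMSO and at 1.11, 2.4, 2.35 and 34 with alectinib (0.43 ± 0.41, adjusted p = 0.447). Days 2 and 3 were lower and days 1 and 5 higher with alectinib in EA3, and without day 5 the value was -0.17. C4b shares 8.17% of such words with C4a, which was not called in any line.

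Cd55 encodes decay-accelerating factor, a membrane protein that dissociates the C3 convertases. In EA1 it was at 1.46, 1.78, 1.07 and 1.68 CPM with DMSO and at 5.11, 9.92, 17 and 29.4 with alectinib, so the groups did not overlap. It rose in EA1 by 3.09 ± 0.48 on the log2 scale (SE; adjusted p = 0.000841, edgeR). In EA2 it had 0 counts in all 8 libraries, each of at least 5780062 counts, which leaves up to 3 counts per library undetected. In EA3 it was at 0.808, 0.35, 0.528 and 0.989 CPM with DMSO and at 1.29, 1.53, 0.941 and 4.65 with alectinib (1.45 ± 0.52, adjusted p = 0.0542, higher on 4 of 4 days). That value was close to the threshold, and it passed without day 1 (1.76, adjusted p = 0.0424) and without the filter on low counts (1.41, 0.0274, edgeR). Cd55b, the near copy of Cd55, had no counts in the 24 libraries.

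Cfb, factor B of the alternative pathway, had no more than 12 counts in a library of EA1 and no more than 2 in one of EA2. In EA3 it was at 1.62, 1.63, 0.924 and 1.65 CPM with DMSO and at 1.66, 0.982, 0.471 and 5.3 with alectinib. Its log2 fold changes were 1.58 ± 0.88 (adjusted p = 0.186), 0.02 ± 1.18 (1) and 0.08 ± 0.71 (0.943) in EA1, EA2 and EA3 (SE, edgeR). The 95% intervals ran from -0.34 to 3.5, from -2.57 to 2.6 and from -1.48 to 1.65. With a day left out, the EA1 value ran from 0.95 to 2.22 and the EA2 value from -1.77 to 0.86. C2, the other convertase protease, had 6 summed counts in EA1 DMSO libraries and 10 with alectinib, 8 and 26 in EA2, and 9 and 29 in EA3. Without the filter on low counts, its adjusted p was 1, 0.363 and 0.517 in EA1, EA2 and EA3 (edgeR). The annotation places 79.5% of the exon bases of Cfb and 42.8% of those of C2 inside the exons of a readthrough gene on the same strand, Gm20547, which is listed with 0 counts in all 26 libraries. A counter that sets aside reads shared by overlapping genes would lose reads of Cfb and C2, so their levels are uncertain.

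Serping1, the inhibitor of C1r and C1s, had 13 summed counts with DMSO and 3 with alectinib in EA1, and 9 and 1 in EA2. In EA3 it was at 0, 1.63, 4.49 and 3.79 CPM with DMSO and at 0.277, 0.436, 0.847 and 3.03 with alectinib. The log2 fold changes were -1.96 ± 1.33 (adjusted p = 0.276), -2.22 ± 1.64 (0.362) and -1 ± 0.88 (0.413, SE, edgeR), with 95% intervals from -4.88 to 0.96, from -5.8 to 1.36 and from -2.91 to 0.92. The values moved to -2.7 without day 1 in EA1, to -4.43 without day 2 and -0.41 without day 3 in EA2, and to -0.37 without day 3 in EA3. Cd59a, a membrane inhibitor of the terminal complex, had no counts in EA1 and 6 against 15 summed counts in EA2. In EA3 it had 3, 5, 0 and 1 counts with DMSO and 6, 26, 29 and 60 with alectinib. It was left out by the filter on low counts, and without that filter it gave a log2 fold change of 3.19 in EA3 (adjusted p = 0.000263, edgeR). P-values of that unfiltered fit may not measure the spread between days. With day 1 left out, Cd59a passed the filter and gave 3.95 in EA3 (adjusted p = 0.0124, edgeR).

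**Figure D2:**
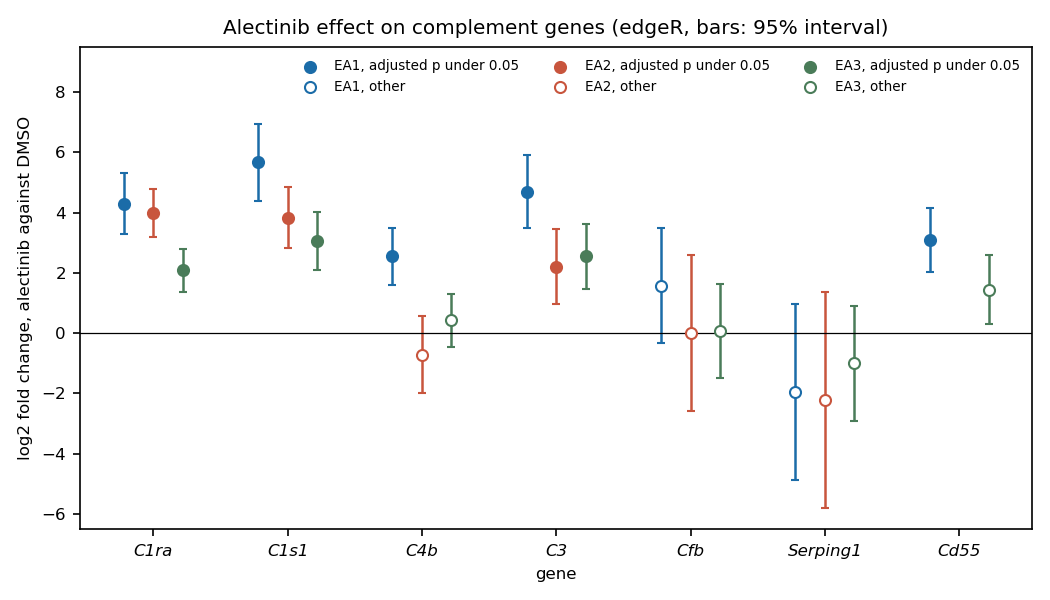
Log2 fold change of alectinib against DMSO (y axis) for each tested complement gene (x axis) in EA1, EA2 and EA3, from the edgeR fit over 4 days per line, with bars for the 95% interval and filled points for an adjusted p under 0.05. C3, C1s1 and C1ra are filled in all 3 lines, C4b and Cd55 only in EA1, and the intervals of Cfb and Serping1 span 0.

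Per kilobase of annotated exon, the order of the members differed between lines. With alectinib, C3 led in EA1 at a mean of 46.0 CPM per kb (25.5 to 75.5), ahead of C1s1 at 5.54 (2.87 to 9.64), C1ra at 3.31 (1.6 to 5.76) and Cd55 at 3.16 (1.05 to 6.06), and the ranges of these last genes overlapped. In EA3, C3 at 420.0 (49.5 to 1410) was ahead of C1ra at 21.0 (7.69 to 40.1) and C1s1 at 15.9 (2.8 to 32.7). In EA2 with alectinib, C1ra at 17.0 (12.4 to 26.2) and C1s1 at 15.5 (6.29 to 31.0) were above C3 at 8.57 (1.42 to 14.2), with overlapping ranges. In EA2 with DMSO the mean of C3 was 1.49 (0.853 to 2.04), and its range overlapped those of C1ra at 1.05 (0.661 to 1.41) and C1s1 at 1.0 (0.372 to 1.51).

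The lines also differed before any drug. Over the 12 DMSO libraries, all 7 tested members differed between lines, as did 55.0% of all genes tested (edgeR, 2 degrees of freedom, with day in the model). C3 was higher in EA3 than in EA1 by 4.21 ± 0.41 and than in EA2 by 4.39 ± 0.41 on the log2 scale (SE; adjusted p = 1.05e-05 and 6.79e-06, edgeR), and without day 5 by 3.56 and 3.75. Between EA2 and EA1 it differed by -0.18 (95% interval -1.03 to 0.67). C1ra stepped up from EA1 to EA2 by 2.81 ± 0.4 (adjusted p = 0.000137) and from EA2 to EA3 by 2 ± 0.31 (0.000351, edgeR). C1s1 was lowest in EA1, by 3.28 ± 0.57 against EA2 (adjusted p = 0.000675) and by 3.9 ± 0.56 against EA3 (0.000228, edgeR), while EA3 and EA2 differed by 0.62 (95% interval -0.36 to 1.6). Without day 5 the C1s1 differences from EA1 were 4 and 4.48. C4b was higher in EA3 than in EA1 (2.12, adjusted p = 0.0127) and EA2 (3.05, 0.00211), and so was Cfb (2.74, 0.00766 and 4.53, 0.000905). The C4b difference from EA1 was 2.18 without day 2 (adjusted p = 0.0649) and 1.49 without day 5 (0.0984), where that from EA2 was 2.3, and the Cfb difference from EA2 was 5.16 without day 2. Serping1 differed between EA3 and EA2 (adjusted p = 0.0212), but not without day 2 (0.0702) or without day in the model (0.0709), where its difference over the 3 lines was not called either (0.0531 and 0.0677). Cd55 was lower in EA2, where it had no counts, than in EA1 (adjusted p = 0.000361) and EA3 (0.00235). For these pairs, 40.0% of all genes differed between EA2 and EA1, 31.0% between EA3 and EA1, and 36.1% between EA3 and EA2.

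Whether the alectinib effect itself differed between lines was tested in the same fit. It was called for C4b (adjusted p = 0.0292) and C1ra (0.0336), 2 of 7 members, against 6.84% of all genes tested. The C4b effect was smaller in EA2 than in EA1 by 3.26 on the log2 scale (95% interval of the difference -4.86 to -1.66, adjusted p = 0.0215, edgeR), a contrast called for 6.44% of genes. This pair was not called without day 1 (adjusted p = 0.0792), day 2 (0.0666), day 3 (0.113) or day 5 (0.0512), nor without the day block (0.23). The difference between EA3 and EA1 was -2.12 (-3.39 to -0.84, adjusted p = 0.0967, and 0.036 without the filter on low counts), which ran from -2.84 to -1.6 with a day left out and was -1.13 without the day block. For C1ra, no single pair passed in the fit as reported: EA3 differed from EA1 by -2.21 (-3.48 to -0.94, adjusted p = 0.0803), from EA2 by -1.9 (-2.93 to -0.87, 0.0511), and EA2 from EA1 by -0.31 (-1.55 to 0.92, 0.781). The C1ra difference between EA3 and EA2 passed with DESeq2 (adjusted p = 0.013), with DESeq2 size factors in edgeR (0.0496) and without day 5 (-2.55, 0.0236), and that between EA3 and EA1 passed with DESeq2 (0.016). Without the filter on low counts both passed (5.91e-06 and 5.65e-05, edgeR). Over the 3 lines, both calls were lost without day 1 (C4b 0.109, C1ra 0.149), without day 3 (0.151 and 0.196), without the day block (0.391 and 0.0842) and with all 26 libraries (0.0532 and 0.394), where the pair that matched EA2 stands under its EA3 label. The C4b call was also lost without day 2 (0.131), and that of C1ra with library size alone (0.0502). C3 (adjusted p = 0.0881), C1s1 (0.119), Cd55 (0.301), Cfb (0.602) and Serping1 (0.795) were not called. DESeq2 called C3 (0.0412) and C1s1 (0.0216). Without the filter on low counts, edgeR called both as well (1.29e-16 and 2.3e-05). For C3 this lies far below 0.0412 and 0.0881, so p-values of the unfiltered fit may not measure the spread between days. The C3 effect in EA2 differed from that in EA1 by -2.48 (-4.12 to -0.84) and in EA3 by -2.13 (-3.64 to -0.62), with adjusted p = 0.071 and 0.159 (edgeR). With a day left out, they ran from -3.04 to -1.6 and from -2.35 to -1.85, and neither passed. DESeq2 called the C3 difference between EA2 and EA1 (-2.5, adjusted p = 0.0201) and the C1s1 difference between EA3 and EA1 (-2.76, 0.0174). Without the filter, edgeR called the C3 differences of EA2 and EA3 from EA1 (1.01e-13 and 8.16e-12) and those of C1s1 (0.00743 and 1.04e-05).

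The course over days was examined as the change of the effect per doubling of days. None of the 7 members was called in any line (edgeR), where 0.0210% of all genes shrank in EA1, 0.0491% in EA3 and none in EA2, and none grew. Cd55 in EA1 and C3 and C1s1 in EA2 had an unadjusted p under 0.05 (edgeR), and DESeq2 called C3 in EA2. The share of all genes at these thresholds was not computed, so nothing is read from the number of members. The log2 ratio of C3 in EA2 went from 3.99 on day 1 to 1.78, 3.13 and -0.51 on days 2, 3 and 5, a slope of -1.66 ± 0.46 per doubling (SE; adjusted p = 0.648 by edgeR and 0.00761 by DESeq2). Without day 5 that slope was -0.72. The ratio of C1s1 in EA2 went from 5.07 to 3.65, 4.3 and 2.09 (slope -1.22 ± 0.39, adjusted p = 0.664), and its slope ran from -1.43 to -0.64 with a day left out. The ratio of Cd55 in EA1 went from 1.67 to 2.34, 3.74 and 3.97 (slope 1.1 ± 0.41, adjusted p = 0.357, edgeR). The ratio of C1ra stayed between 3.07 and 4.34 in EA2 and was 1.68, 1.23, 2.3 and 3.09 in EA3.

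**Figure D3:**
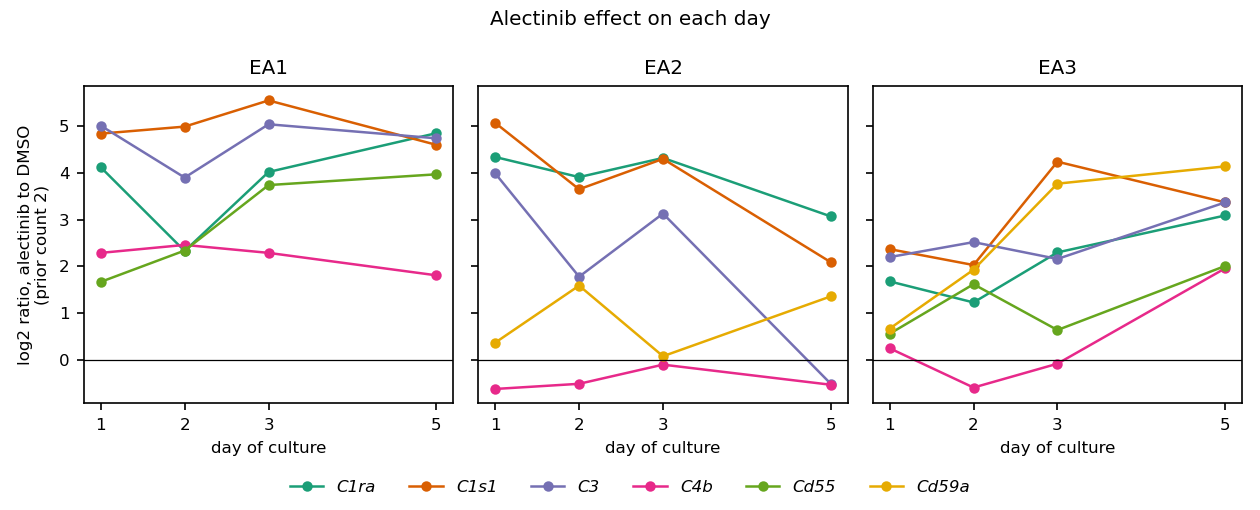
Log2 ratio of alectinib to DMSO (y axis, prior count of 2) on each day (x axis), in 1 panel per line with 1 coloured line per gene. Drawn are C1ra, C1s1, C3, C4b, Cd55 and Cd59a where a line held counts of them, and not C2, Cfb or Serping1. In EA2 the ratio of C3 goes from 3.99 on day 1 to -0.51 on day 5, and in EA1 the ratio of Cd55 goes from 1.67 to 3.97.

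Levels were also followed over days within each treatment. C3 in EA3 DMSO libraries rose by 1.47 per doubling of days (adjusted p = 0.0385, edgeR), as did 5.69% of genes tested in that group. This call was lost without day 1 (1.89, adjusted p = 0.853), day 2 (1.46, 0.143) or day 5 (0.53, 0.694). In EA3 alectinib libraries the slopes of C3 (1.96, adjusted p = 0.058), C4b (2.11, 0.0601) and C1s1 (1.55, 0.0699) did not pass, where 0.442% of genes rose. With alectinib in EA1 the slope of Cd55 was 1.1 (adjusted p = 0.663) and that of C1s1 was 0.79 (0.943, edgeR), where no gene was called. Whether slopes differed between lines was not tested. No other slope of a member was called, where 1.98% of genes rose and 1.65% fell in EA1 DMSO libraries, 5.66% fell in EA3 DMSO libraries, and with alectinib 0.0210% rose and 0.0421% fell in EA2 and 0.0491% fell in EA3. Each of the 3 slopes in EA3 alectinib libraries passed without day 3 (2.09, 2.19 and 1.5, with adjusted p = 0.000204, 0.0235 and 0.00301, edgeR), as did that of C1s1 in EA3 DMSO libraries (1, 0.0129). With each other day left out none of the 3 passed, and over all 4 days left out in turn they ran from 0.58 to 2.53 for C3, from 0.73 to 3.01 for C4b and from 1.37 to 1.73 for C1s1. Per day in place of per doubling, the alectinib slopes of C3 and C4b passed as well (adjusted p = 0.0166 and 0.0409, edgeR).

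As a description with no test, the 12 daily log2 ratios (3 lines by 4 days, which share a line and a control library within each day) were correlated between members. Pearson r was 0.79 for C3 and C1s1, 0.64 for C1s1 and C1ra, 0.45 for C3 and C1ra, and 0.71 for C3 and C4b, which had at most 5 counts in an EA2 library. Serping1 had r between -0.17 and 0.05 with the others. The 4 EA2 ratios of Cd55 are 0 because it had no counts there, so its values hold 8 measured ratios. Among about 9370 tested genes with a mean log2 CPM of at least 3, the ratios most like those of C3 were Plcb3 (r = 0.946), Nucb1 (0.93) and Pax9 (0.922). Those most like C1s1 were Mrpl34 (0.901), Apopt1 (0.859) and Zfand1 (0.857), and those most like C1ra were Tm4sf1 (0.889), Rasa3 (0.859) and Fdxr (0.853). For C4b they were Creg1 (0.958), Pfn2 (0.93) and Bphl (0.918), and for Cd55 they were Gdf11 (0.973), Spata13 (0.958) and Twf1 (0.957).

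The rest of the complement system was taken from a list of 42 further genes, of which 16 had enough counts to be tested. In EA1, EA2 and EA3, 4, 5 and 5 of these rose and 2, 4 and 2 fell, beside 19.0%, 13.0% and 17.5% of all genes tested that rose and 14.6%, 11.3% and 15.1% that fell. In EA1 both counts are near these shares. Their median log2 fold change was 0.41, 0.31 and 0.22, beside 0.06, 0 and 0.07 over all genes tested. The C1q chains, the terminal components other than C8g and the receptors Cr2, C5ar1 and C5ar2 were not tested because of low counts.

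Among initiators, Masp1, a protease of the lectin pathway, rose in all 3 lines, as did 5.78% of genes tested. Its groups did not overlap in EA1, EA2 or EA3, as for 18.4%, 14.3% and 12.9% of genes tested. It went from 10.3 to 28.7 CPM in EA1 DMSO libraries to 124 to 183 with alectinib, from 36.0 to 45.3 in EA2 to 77.1 to 182, and from 2.64 to 13.1 in EA3 to 56.0 to 97.9. Its log2 fold changes were 3.12 ± 0.27 (SE; adjusted p = 6.16e-06), 1.51 ± 0.25 (0.000742) and 3.45 ± 0.28 (5.2e-06, edgeR). C1rl, the neighbour of C1ra, rose by 5.4 ± 0.75 in EA1 (adjusted p = 0.000199), 1.51 ± 0.46 in EA2 (0.029) and 1.44 ± 0.48 in EA3 (0.0357, edgeR). In EA2 the C1rl call was lost without day 1 (1.44, 0.0941) or day 3 (1.36, 0.139), and in EA3 without day 3 (1.23, 0.152), without day 5 (0.84, 0.198) or with EA3 fitted alone (1.43, 0.0869). Over the days left out in turn, its EA1 value ran from 4.85 to 6.12. Colec10, a collectin that starts the lectin pathway, rose in EA1 (4.43 ± 0.88, adjusted p = 0.00352, 3.86 to 6.2 with a day left out) and EA3 (adjusted p = 0.0093), where DMSO libraries held 0 counts and the level was at least 5.02-fold higher (a floor of 3 counts over the group). The EA3 call was lost without day 2 (adjusted p = 0.0504) or day 3 (0.0566). Fcna, ficolin A, fell in EA2 by 5.55 (log2, adjusted p = 0.0022), from 87 summed counts to 1, and in EA3 by 3.21 (0.0231, edgeR), from 27 to 3. The EA3 call was lost without day 2 (-2.9, 0.0872) or day 5 (-3.47, 0.0583), and the EA2 value ran from -7.6 to -4.92 with a day left out.

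Among regulators, C4bp, whose product binds C4b and blocks its convertase, rose in all 3 lines. It went from 1.39 to 13.5 CPM to 67.4 to 97.4 in EA1 (log2 fold change 3.9 ± 0.64, adjusted p = 0.00139) and from 0 to 0.449 to 5.17 to 24.8 in EA3 (5.93 ± 0.88, 0.00081, edgeR; 5.25 to 7.51 with a day left out). In EA2 it went from 0 counts to 37 summed counts (adjusted p = 0.0262), which is at least 14.5-fold higher, and the call was lost without day 3 (0.0682) or day 5 (0.0804). Clu, clusterin, which binds the terminal complex, rose from 36.6 ± 13.4 to 180 ± 59.6 CPM in EA2 (2.3 ± 0.21, adjusted p = 1.2e-05) and from 2940 ± 1020 to 4610 ± 1500 in EA3 (0.66 ± 0.2, 0.024, edgeR). The EA3 call for Clu was lost without day 3 (0.61, adjusted p = 0.081), without day 5 (0.51, 0.15) or without the day block (0.65, 0.129). In EA1 Clu changed by 0.55 (adjusted p = 0.0529), which passed with DESeq2 (0.0316), with library size alone (0.0297) and without the filter on low counts (0.0368). C1qbp, a mostly mitochondrial protein that can bind C1q, fell in EA1 (-1.08 ± 0.15, adjusted p = 0.000158), EA2 (-0.47 ± 0.14, 0.0299) and EA3 (-0.72 ± 0.14, 0.00225, edgeR), with 4 of 4 days lower in each. In EA2 this call was lost without day 1 (0.123), day 2 (0.14), day 5 (0.064) or the filter on low counts (0.113).

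**Figure D4:**
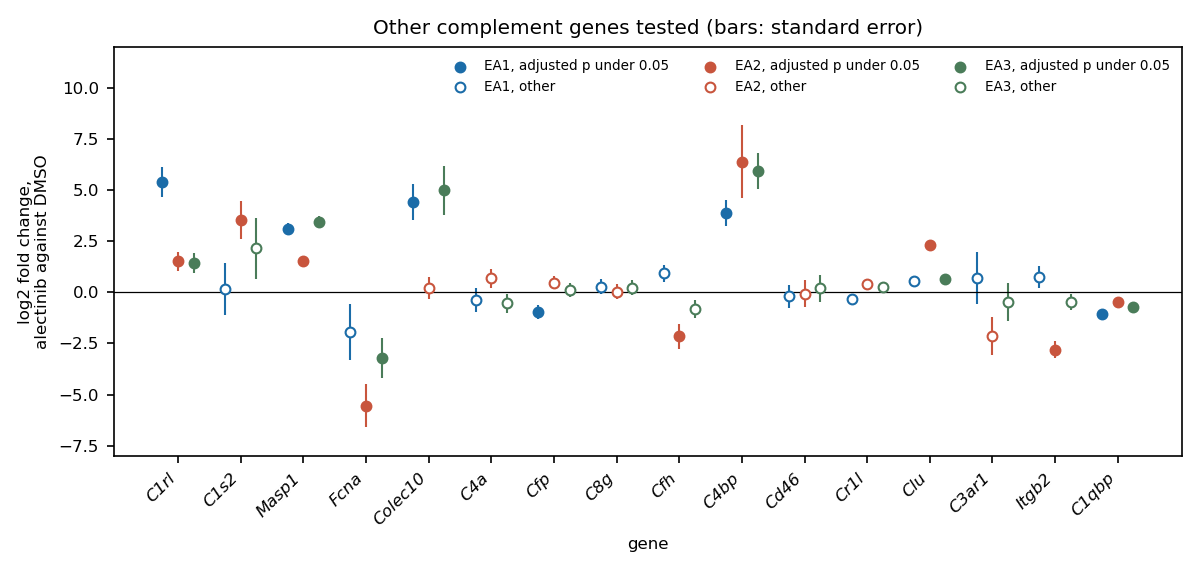
Log2 fold change of alectinib against DMSO (y axis) for the 16 further complement genes tested (x axis) in each line, with bars for the standard error derived from the edgeR test and filled points for an adjusted p under 0.05. Masp1, C1rl and C4bp lie above 0 and are filled in all 3 lines, and C1qbp lies below 0 and is filled in all 3.

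Another pair of lists gives the setting of these genes. Of 16 transcription factors known to act on complement genes, 5, 1 and 5 rose in EA1, EA2 and EA3. The share that rose was below that of all genes in EA2 (13.0%) and above it in EA1 and EA3 (19.0% and 17.5%). In EA3, 1 of the 16 fell, against 15.1% of all genes. None of the factors passed the test with 1 sign in all 3 lines. Of 16 acute phase genes, 6 were tested, of which 5, 2 and 2 rose in EA1, EA2 and EA3, against the same shares of all genes that rose. In EA2, 2 of the 6 fell, against 11.3% of all genes. Saa3, a serum amyloid A gene, rose by 5.09 ± 0.75 in EA1 (SE; adjusted p = 0.000326), 3.31 ± 0.69 in EA2 (0.00366) and 4.51 ± 0.83 in EA3 (0.00142, edgeR). With a day left out, its value ran from 4.62 to 5.72 in EA1 and from 3.49 to 5.38 in EA3. Orm1, an orosomucoid gene, rose by 4.27 ± 0.69 in EA1 (adjusted p = 0.0011) and 3.4 ± 0.85 in EA2 (0.0142, edgeR). In EA3 it went from 0 to 90 summed counts (adjusted p = 0.00767), at least 25.1-fold higher. The Orm1 calls were lost without day 3 in EA2 (2.66, adjusted p = 0.0834) and without day 5 in EA3 (3.95, 0.173). The EA2 value was 4.42 without day 5. In EA3, day 5 alone held 8.98 CPM against at most 0.471 on other days.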

How the data were processed

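Per the labels and the study's methods, poly(A) RNA was made into libraries with a stranded mRNA kit and sequenced as paired reads. The authors checked reads with FastQC, trimmed adapters with bbduk, aligned them with STAR (mm10) and deposited, as raw counts per gene, the output of its internal counter. Versions, the annotation release and the strand column counted are not given in the sources used here. The counts were analysed as deposited, apart from 24 rows whose symbol was a date number (0.129% to 0.201% of a library's counts).

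Tests used edgeR 4.0.16 in R 4.3.3 (TMM factors, filterByExpr by line and treatment, robust quasi-likelihood fit) on 24 libraries in 1 fit with 12 blocks of line and day and an alectinib effect per line. Adjusted p-values follow Benjamini and Hochberg over 14264 genes, with a threshold of 0.05. DMSO and alectinib libraries with the same line and day label formed a block, though the labels do not say that they shared a culture day. The deviations of the 12 pairs correlated from -0.3 to 0.549, with 6 over 0.1. Further fits covered lines with DMSO, the effect over log2(day) and levels over log2(day). The log2 ratios per day used a prior count of 2. DESeq2 1.42.0, other scalings and filters, each line fitted alone, all 26 libraries and each day left out were alternatives. Scripts were tested on simulated counts. Gene positions and exon lengths came from GENCODE M21 and promoters from RefSeq, both on GRCm38.

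The members were chosen by symbol. The members and lists were chosen with earlier results of these data known. Named beside the members were further complement genes past the threshold in at least 2 lines, transcription factors and acute phase genes past it in all 3 lines with 1 sign, and the 3 genes of each called member most like it in daily ratios. Counting floors of 3 counts cover counting error only.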

Additional observations from a re-analysis of the deposited data

Results flagged for a closer look

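In 44 groups of 4 libraries, the most extreme library was set against the others by Dixon's ratio of its gap to the range at the 95% level, which chance passes in about 1 of 20 groups, and 7 groups passed. Of these, 5 were in EA3 and 2 in EA1. In EA3 on day 5, C3 stood apart with DMSO (ratio 0.883) and with alectinib (0.928), as did C4b (0.961) and Cd55 (0.842) with alectinib. Cfb in EA3 DMSO was low on day 3 (0.954). C1s1 in EA1 DMSO was high on day 5 (0.883) and C1ra in EA1 DMSO was high on day 2 (0.841), both at fewer than 10 counts. The alectinib effect differed between lines for C4b (adjusted p = 0.0292) and C1ra (0.0336) by the edgeR test of the difference itself.

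The 2 libraries labelled EA3 day 7 were not used in the comparisons as reported. The alectinib library held 272 counts of C3 (23 CPM), 836 of C1s1 (70.8 CPM), 887 of C1ra (75.1 CPM) and 12 of Cd59a (1.02 CPM), each above the limit that counting error sets for the DMSO library, which held 55, 9, 7 and 0. The ratios were 3.32 for C3, 62.4 for C1s1 and 85.2 for C1ra, between 1 library each. Cd55 had 0 counts in both, as in the EA2 libraries.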

How the results depend on the processing

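Of the results for single genes and contrasts, most kept their direction and side of the threshold, and exceptions that changed a call stand beside the results they touch or here. At least 10 counts in every library left C3 as the only member tested, so 1 member was called higher in each line and 1 differed between lines with DMSO. Without the filter on low counts, 5 members were called higher in EA3 (3 in the fit as reported) and 4 differed in effect between lines (2). Adjusted p-values of that fit could lie far below the others (C3 between lines 1.29e-16 against 0.0881, edgeR). Its calls, here and above, may therefore not measure the spread between days. With a day left out, the number called higher ran from 3 to 5 in EA3, and the number that differed in effect from 0 to 2. That number was 4 with DESeq2, 1 with library size alone, 0 with all 26 libraries and 0 without the day block. Leaving out the replicate block (the day) also ended the calls of C3 (2.53, adjusted p = 0.0643), C1rl (1.55, 0.0521), C1qbp (-0.47, 0.0965) and Orm1 (3.51, 0.0781) in EA2, of Clu in EA3 (0.65, 0.129, all edgeR) and of Serping1 between lines with DMSO (0.0677). DESeq2 called 1 shrinking effect in EA2. Member levels that rose over days numbered 1, but 3 with day in place of log2(day) and 0 to 6 with a day left out, and those that fell 0 to 1. For these alternative settings the share of all genes called was not computed. The counts of members thus show how calls moved, and not whether members stood out.

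Directions turned for values near 0: Cfb in EA2 (-0.01 with all 26 libraries, 0 with library size alone, -1.77 to 0.86 with a day left out), Cfb in EA3 (-0.1 with all 26 libraries, -0.5 to 0.35 with a day left out), C4b in EA3 (-0.17 to 0.8), Colec10 in EA2 (-0.07 to 0.46), C1ra between EA2 and EA1 (-0.93 to 0.42), C3 between EA3 and EA2 (-0.73 to 1.14), and the C1ra slope in EA3 DMSO (-0.42 to 0.64). The cause was not tested. Few counts per library limit the precision of Cfb, C2, Serping1 and Cd59a, and of Cd55 in EA3.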
